A study of Homo sapiens with 8 samples.

Results

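HOX cluster genes were examined in the RNA of RMG1 cells: the protein-coding genes named HOXA, HOXB, HOXC or HOXD with a number from 1 to 13. They were found by symbol through their Ensembl IDs, and no measured value entered the choice. There were 39 of them among the 57736 IDs of the count table, with 11 in the HOXA cluster on chromosome 7, 10 in HOXB on chromosome 17, 9 in HOXC on chromosome 12 and 9 in HOXD on chromosome 2.

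RMG1 is an established line of human ovarian clear cell carcinoma. Total RNA was sequenced from 8 libraries in 4 groups of 2: ARID1A KO cells, which were made by CRISPR and keep CAPH2; WT cells, with both genes intact; CAPH2 KD cells, which express an shRNA against CAPH2 and keep ARID1A; and shControl cells, which carry a control shRNA and have both genes intact. ARID1A belongs to the SWI/SNF complex, which moves nucleosomes, and binds DNA. CAPH2 is the condensin II subunit encoded by NCAPH2, and condensin II folds and compacts chromosomes. The labels give neither the number of clones behind the knockout nor the number of shRNA sequences behind the knockdown. Nor do they say that replicate libraries stem from separate cultures, and p-values here thus measure a spread between libraries that may be technical.

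HOX genes encode homeodomain transcription factors that give cells their position along the body axis. Within a cluster, the genes at one end (low numbers) are used early and towards the head, and those at the other end (high numbers) late and towards the tail. Clusters are held silent by Polycomb complexes and kept active by trithorax-group complexes, and retinoic acid switches many of them on in embryos. In the female reproductive tract, HOXA9, HOXA10, HOXA11 and HOXA13 pattern the oviduct, uterus, cervix and upper vagina along the Müllerian duct.

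The start sites of 4 genes that changed in the knockout are shown, because 3 of them lie in HOXD and rose while the other, HOXA7, fell. The other tested HOXD genes, HOXD1, HOXD4, HOXD9, HOXD10 and HOXD11, were not called. The sequences are from RefSeq (GRCh38.p14), run 5′ to 3′ on the strand of the gene, and cover 250 bases before to 50 bases after the annotated start. Capitals mark any match, on either strand, to 5 motifs: TGATNNAT (a composite PBX-HOX site), TAATTA (a homeodomain core), TGANTCA (an AP-1 site), CCAAT and TATAAA.
HOXD13, chr2:176092471-176092770, plus strand: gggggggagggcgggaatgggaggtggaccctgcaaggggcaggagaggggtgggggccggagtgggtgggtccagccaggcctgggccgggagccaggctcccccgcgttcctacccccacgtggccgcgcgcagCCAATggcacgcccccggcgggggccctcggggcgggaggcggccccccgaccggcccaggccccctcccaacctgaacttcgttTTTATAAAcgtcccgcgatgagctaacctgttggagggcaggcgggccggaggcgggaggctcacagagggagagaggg
HOXD8, chr2:176129455-176129754, plus strand: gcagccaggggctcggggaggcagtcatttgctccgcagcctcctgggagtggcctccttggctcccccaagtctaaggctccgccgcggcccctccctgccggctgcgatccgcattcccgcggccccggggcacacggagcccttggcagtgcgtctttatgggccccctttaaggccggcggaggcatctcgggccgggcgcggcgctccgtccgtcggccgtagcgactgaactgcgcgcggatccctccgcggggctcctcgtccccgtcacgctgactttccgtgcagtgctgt
HOXD3, chr2:176157057-176157356, plus strand: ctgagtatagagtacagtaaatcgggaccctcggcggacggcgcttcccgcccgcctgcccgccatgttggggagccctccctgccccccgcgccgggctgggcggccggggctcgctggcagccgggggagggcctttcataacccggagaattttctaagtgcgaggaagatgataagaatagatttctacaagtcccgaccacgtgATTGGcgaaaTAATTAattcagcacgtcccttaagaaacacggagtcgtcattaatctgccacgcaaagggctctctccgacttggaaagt
HOXA7, chr7:27156626-27156925, minus strand: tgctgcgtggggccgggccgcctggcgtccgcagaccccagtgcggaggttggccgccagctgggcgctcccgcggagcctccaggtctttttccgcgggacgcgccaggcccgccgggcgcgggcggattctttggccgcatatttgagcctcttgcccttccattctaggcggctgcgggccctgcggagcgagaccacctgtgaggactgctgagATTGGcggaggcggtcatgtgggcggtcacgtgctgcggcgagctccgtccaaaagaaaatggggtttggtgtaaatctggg

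The HOXD13 window held 1 CCAAT match and a stretch that reads as TATAAA on both strands, giving 2 overlapping matches. The HOXD3 window held 1 TAATTA and 1 CCAAT match, the HOXA7 window 1 CCAAT match, and the HOXD8 window no match to any of the 5. Among 35116 promoter windows of the same length, 34.6% held CCAAT, 11.5% TATAAA, 4.84% TAATTA, 7.4% TGATNNAT and 7.71% TGANTCA. The windows are rich in CpG dinucleotides, with 24 in HOXD13, 34 in HOXD8, 25 in HOXD3 and 31 in HOXA7, against a median of 14 over all windows. A total of 20 HOX genes had a window in the RefSeq table, with 27 windows among them, of which 18 held CCAAT, 5 TATAAA, 3 TGATNNAT, 2 TAATTA and 0 TGANTCA. HOXC4 and HOXC5 share a window, which holds CCAAT and is counted for each gene, and HOXA3 has 7 of the windows. HOXB2, HOXC9, HOXA5 and HOXB6, the other genes called below in the knockout or the knockdown, were not matched there.

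Total counts were 35392307 and 37378691 in ARID1A KO cells, 24559547 and 27144974 in WT cells, 31791100 and 31562201 in CAPH2 KD cells, and 32831617 and 36731763 in shControl cells. Levels are counts relative to library size (CPM) after scaling with trimmed means of M values (TMM), and a single count was worth 0.0261 to 0.0413 CPM. As a check of the labels, ARID1A stood at 6.66 and 5.61 CPM in ARID1A KO cells and 8.80 and 12.1 CPM in WT cells, and NCAPH2 at 8.98 and 8.74 CPM in CAPH2 KD cells and 24 and 25.8 CPM in shControl cells. Both targets fell in their own comparison. In edgeR's quasi-likelihood test with Benjamini-Hochberg adjustment over all 16657 genes tested, the log2 fold change of ARID1A was −0.77 (SE 0.16, adjusted p = 0.00274) and that of NCAPH2 −1.49 (SE 0.10, adjusted p = 1.84e-06). NCAPH2 was also lower in ARID1A KO than in WT cells (log2 fold change −0.34, adjusted p = 0.0144), a call that was lost without WT replicate 2 (−0.26) or ARID1A KO replicate 1 (−0.25). Of the clear cell markers listed, PAX8 was at 244 to 354 CPM in the 8 libraries, and 4 epithelial markers summed to 1582 to 1795 CPM. Within that sum, CDH1 (log2 fold change 0.96, adjusted p = 7.93e-08) and EPCAM (0.29, adjusted p = 0.0201) rose and KRT8 fell (−0.70, adjusted p = 1.06e-06) in ARID1A KO cells. In ARID1A KO cells GLRX (13 and 11 CPM, against 51.5 and 45.1 CPM in WT cells), FXYD2 (11.6 and 11.2 CPM, against 74.7 and 63.4 CPM) and NAPSA (2.82 and 3.68 CPM, against 5.62 and 5.36 CPM) were lower than in WT cells. In CAPH2 KD cells PAX8 (−0.49, adjusted p = 6.1e-05) and FXYD2 (−0.50, adjusted p = 0.00095) fell and NAPSA rose (0.85, adjusted p = 0.0255) relative to shControl cells. Endothelial markers summed to at most 0.124 CPM in any library and fibroblast markers to 0.959 and 0.966 CPM in ARID1A KO cells, 0.455 and 0.435 CPM in WT cells and 0.284 to 0.464 CPM in the shRNA-carrying libraries. Among the fibroblast markers LUM was at 0.356 and 0.705 CPM in ARID1A KO cells and at 0 in the other 6 libraries, and COL1A2 was at 0 in all libraries. Leukocyte markers summed to 2.60 and 1.98 CPM in ARID1A KO cells, 0.413 and 0.435 CPM in WT cells, 0.757 and 1.13 CPM in CAPH2 KD cells and 0.217 and 0.419 CPM in shControl cells. Of these markers, CD3E was at 0 in all libraries, and PTPRC, which encodes CD45, made up 2.25 and 1.98 CPM of the sums in ARID1A KO cells. CD14 went the other way, at 0.0274 and 0 CPM in ARID1A KO cells and 0.372 and 0.435 CPM in WT cells. The part of these marker differences in the HOX values was not tested. In bulk RNA, fewer cells that express a gene and less RNA per cell cannot be told apart.

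RMG1 cells expressed the HOXB cluster most, HOXA and HOXD at a lower level and HOXC hardly at all. The 39 genes together summed to 342.2 ± 2.83 CPM in ARID1A KO cells, 335.8 ± 15.5 CPM in WT cells, 459.9 ± 2.20 CPM in CAPH2 KD cells and 414.2 ± 1.85 CPM in shControl cells (mean ± SD, n = 2 each). HOXB held 79.9% to 82.4% of that sum in each library. HOXB summed to 273.8 ± 2.67 CPM in ARID1A KO cells, 275.1 ± 14.7 CPM in WT cells, 372.8 ± 2.99 CPM in CAPH2 KD cells and 341.4 ± 1.62 CPM in shControl cells. HOXD summed to 42.5 ± 2.38 CPM in ARID1A KO cells, 31.1 ± 0.392 CPM in WT cells, 47.7 ± 1.76 CPM in CAPH2 KD cells and 40.8 ± 1.12 CPM in shControl cells. HOXA summed to 25.7 ± 2.19 CPM in ARID1A KO cells, 28.2 ± 0.182 CPM in WT cells, 39.2 ± 3.30 CPM in CAPH2 KD cells and 32.0 ± 0.849 CPM in shControl cells. The HOXD sums did not overlap between ARID1A KO (44.2 and 40.8 CPM) and WT cells (31.4 and 30.9 CPM). Those of shControl cells (40.0 and 41.6 CPM) also lay above WT cells and overlapped with those of ARID1A KO cells. All 4 libraries that carry an shRNA lay above both WT libraries in the sum over the 39 genes.

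A total of 28 genes had enough counts to be tested: 10 of HOXA, 9 of HOXB, 8 of HOXD and 1 of HOXC. Of the 11 others, HOXB1, HOXC4, HOXC5, HOXC11, HOXC12 and HOXC13 had no count in any library, where 0 counts allow up to 3 counts, or 0.0783 to 0.124 CPM depending on the library. HOXA13 had 0 to 4 counts per library, HOXC6 0 to 5, HOXC8 0 to 3, HOXC10 0 to 6 and HOXD12 0 to 3. These limits cover counting error only, since reads copied by PCR are not independent molecules. HOXC9 passed the filter on low counts through WT cells alone and HOXD4 through shControl cells alone, and the other 26 tested genes reached it in each of the 4 groups.

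To compare levels between genes, CPM was divided by the length of each gene's merged exons in kilobases. HOXB7 had the highest level per kilobase in each group, at 64.7 ± 2.60 in ARID1A KO cells, 72.7 ± 5.71 in WT cells, 101.2 ± 2.12 in CAPH2 KD cells and 92.5 ± 1.37 in shControl cells (CPM per kb, mean ± SD, n = 2). In WT cells HOXB9 (19.9 ± 0.641 CPM per kb), HOXB6 (17.2 ± 1.21), HOXB2 (6.18 ± 0.0625) and HOXB3 (4.49 ± 0.302) followed. HOXB3 and HOXD10 (4.12 ± 0.334), the highest of HOXD, overlapped between their libraries. HOXB8, HOXD8 (2.99 ± 0.112), HOXA5 and HOXB4 (2.63 ± 0.0635) came next, each overlapping with the one after it, while the HOXD8 libraries lay above those of HOXB4. HOXA5 was the highest of HOXA in WT cells at 2.86 ± 0.650 CPM per kb, and HOXA10, a gene of uterine identity, stood at 2.35 ± 0.0241. HOXB9 stood above HOXB6 in ARID1A KO cells (19.0 ± 0.578 against 16.2 ± 0.0877 CPM per kb) as in WT cells, and HOXB6 stood above HOXB9 in CAPH2 KD cells (30.1 ± 0.0829 against 20.2 ± 0.185 CPM per kb) and in shControl cells (22.5 ± 1.67 against 20.2 ± 0.333). HOXD13 was in place 16 in ARID1A KO cells and place 26 in WT cells.

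**Figure D1:**
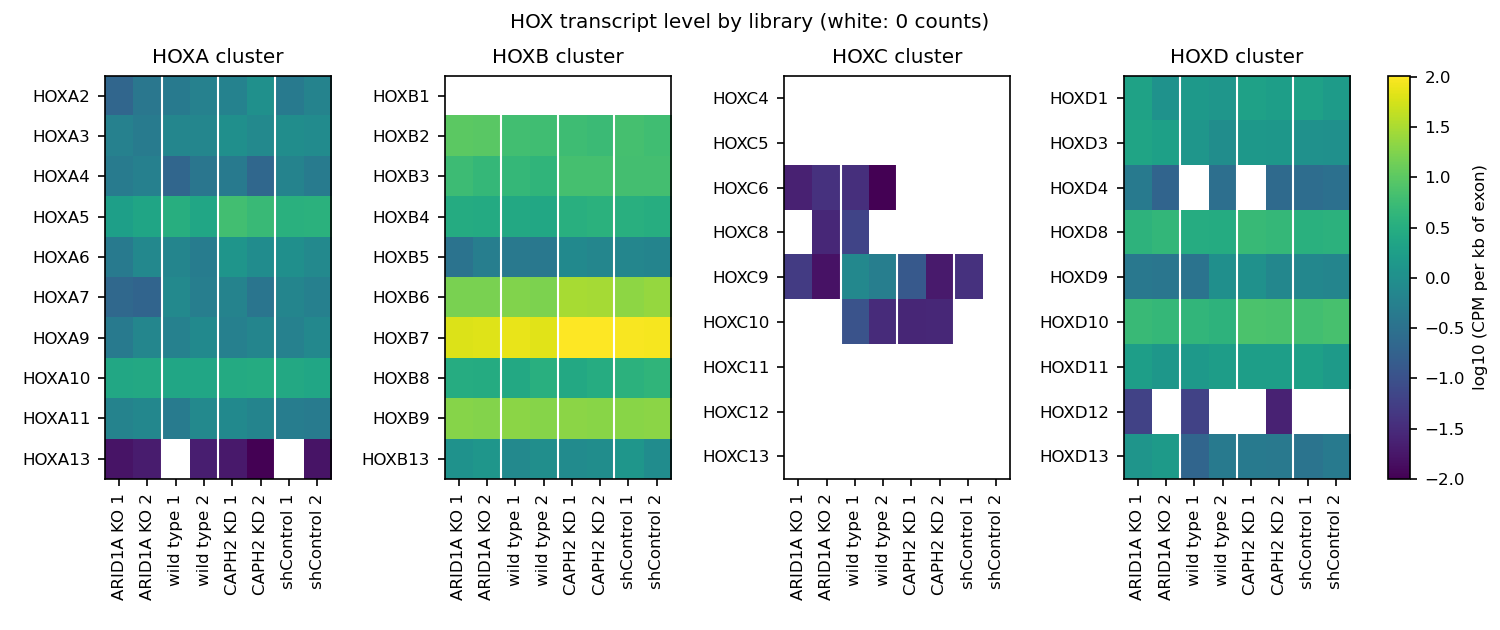
Level of 38 HOX genes in each of the 8 libraries as a heat map, 1 panel per cluster, with genes in rows, libraries in columns and colour for log10 of CPM per kb of exon; white cells are 0 counts. HOXB6, HOXB7 and HOXB9 are the brightest rows, and the HOXC rows are white or dark, with HOXC9 at its highest in the WT libraries.

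The first comparison, ARID1A KO against WT cells, asks how loss of the SWI/SNF subunit changed expression. HOXB2, HOXD3, HOXD8 and HOXD13 rose and HOXA7 fell. That is 5 of 27 tested genes, or 18.5%, beside 34.5% of all genes tested, of which 16.8% rose and 17.8% fell. HOXC9 was called lower too, which would make 6 of 28 (21.4%), but it entered the test because it is high in WT cells, so its values are given as a description. Either share of HOX genes called was no higher than that over all genes. The median log2 fold change was 0.06 over the 28 genes and 0.000216 over all genes, with 15 of the 28 above 0. By cluster the median was −0.14 for the 10 HOXA genes, 0.05 for the 9 HOXB genes and 0.39 for the 8 HOXD genes.

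HOXD13, which encodes the most posterior factor of its cluster and shapes digits and the urogenital tract, stood at 2.77 and 3.39 CPM in ARID1A KO cells and 0.455 and 0.978 CPM in WT cells. Both knockout libraries lay above every other library, the shRNA-carrying ones at 0.774 to 0.977 CPM included. Its log2 fold change was 2.08 (SE 0.37, adjusted p = 0.00107), the largest rise among the 28 genes.
HOXD3, which encodes an anterior-group factor, stood at 7.78 and 6.71 CPM in ARID1A KO cells and 4.55 and 3.30 CPM in WT cells, with a log2 fold change of 0.89 (SE 0.18, adjusted p = 0.00278). Of its annotated exon bases, 74.1% are shared with other annotated genes, among them the antisense HOXD-AS2 and HAGLR, and reads from both strands cannot be told apart here because the strand setting of the counting is not given in the sources used here. HOXD8, a central-group gene, stood at 10.3 and 11.9 CPM in ARID1A KO cells and 8.06 and 7.64 CPM in WT cells, with a log2 fold change of 0.50 (SE 0.12, adjusted p = 0.00818). The HOXD8 call was lost without ARID1A KO replicate 2 (0.39, adjusted p = 0.0811).

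HOXB2, an anterior gene that in embryos is used in the hindbrain, stood at 23.4 and 22.9 CPM in ARID1A KO cells and 14.5 and 14.3 CPM in WT cells. The groups were apart by far more than the libraries within them, and the log2 fold change was 0.68 (SE 0.09, adjusted p = 0.000112). HOXB3, the next gene of the cluster, stood at 42.2 and 35.2 CPM in ARID1A KO cells and 35.1 and 31.9 CPM in WT cells (log2 fold change 0.21, adjusted p = 0.0901). Farther along, HOXB9 stood at 50.2 and 48.1 CPM in ARID1A KO cells and 52.6 and 50.2 CPM in WT cells, a log2 fold change of −0.06 with an SE of 0.06.

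HOXA7, a central gene, stood at 0.548 and 0.470 CPM in ARID1A KO cells and 1.86 and 1.23 CPM in WT cells. Its log2 fold change was −1.59 (SE 0.41, adjusted p = 0.0106), and the call was lost without WT replicate 1 (−1.27, adjusted p = 0.0662) or ARID1A KO replicate 2 (−1.48, adjusted p = 0.0689). HOXA-AS3, on the opposite strand, shares 62.5% of its exon bases. HOXC9 had 3 and 1 counts in ARID1A KO cells, 30 and 24 in WT cells, 7 and 1 in CAPH2 KD cells and 2 and 0 in shControl cells. Its ratio of ARID1A KO to WT cells was 0.0513 (exact 95% counting interval 0.0135 to 0.139), and the fitted log2 fold change was −4.20 (SE 0.96). The shRNA-carrying libraries, which have ARID1A, were low in HOXC9 too, and the ratio of shControl to WT cells was 0.0282 (0.00333 to 0.107). The whole HOXC cluster held 6 and 8 counts in ARID1A KO cells, 42 and 27 in WT cells, 9 and 3 in CAPH2 KD cells and 2 and 0 in shControl cells. HOXC9 made up most of the counts in WT cells. HOXC6 had 3 and 5 counts in ARID1A KO cells and 3 and 1 in WT cells, a ratio of 1.39 (0.371 to 6.29). HOXC8 had 0 and 2 counts in ARID1A KO cells and 3 and 0 in WT cells. HOXC10 had 0 and 0 counts in ARID1A KO cells and 6 and 2 in WT cells.

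**Figure D2:**
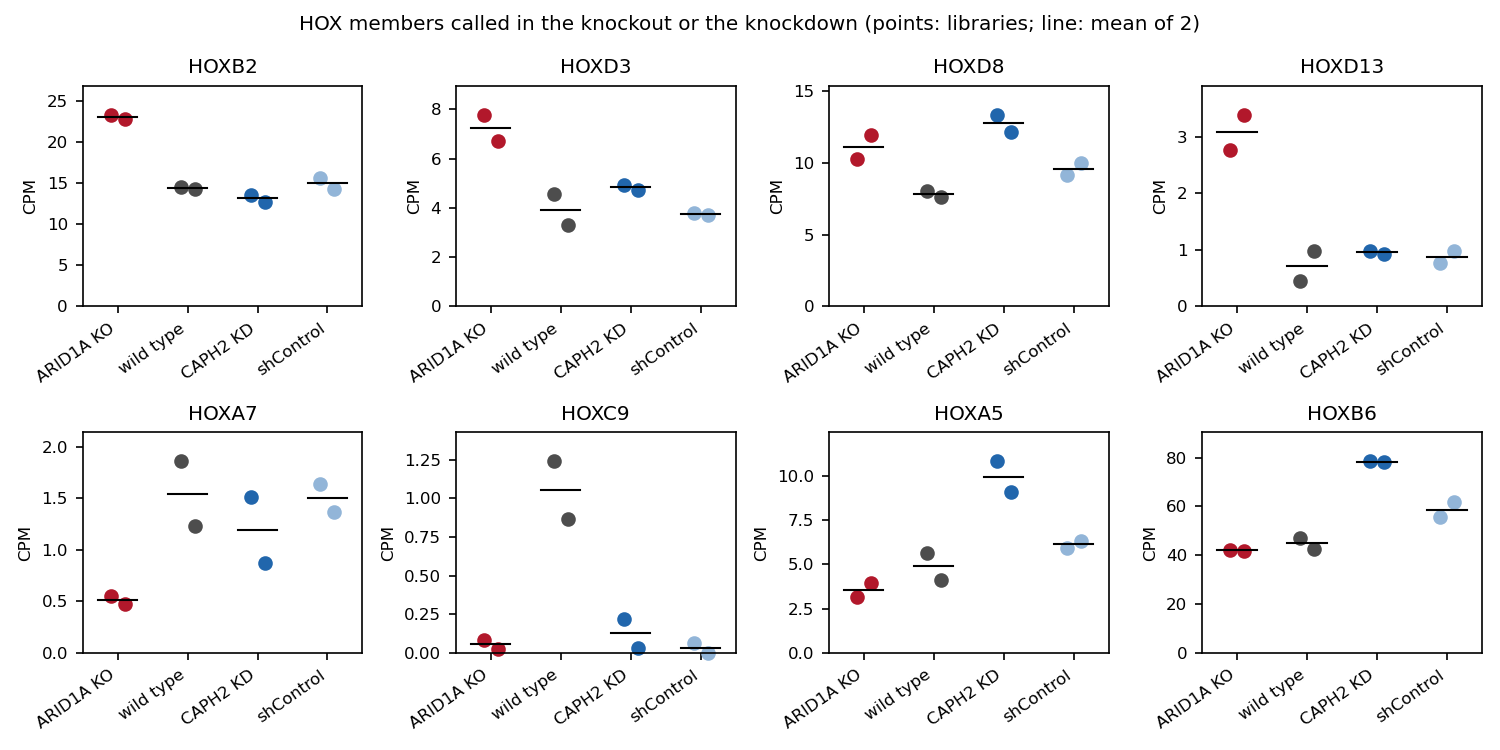
CPM of the 8 genes called in ARID1A KO against WT or in CAPH2 KD against shControl cells, 1 panel per gene on its own linear scale from 0; short lines are the group mean and points the 2 libraries. HOXB2 and HOXD13 stand highest in ARID1A KO cells, HOXA5 and HOXB6 in CAPH2 KD cells, and HOXC9 in WT cells.

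The other 22 genes did not pass the test in this comparison. With 1 library left out, some did: HOXB3 without WT replicate 1 (0.28, adjusted p = 0.0486) or ARID1A KO replicate 2 (0.34, adjusted p = 0.0161), HOXD9 (−1.32, adjusted p = 0.0269) and HOXD10 (0.37, adjusted p = 0.0428) without WT replicate 1, and HOXA5 (−0.67, adjusted p = 0.0302) and HOXB7 (−0.25, adjusted p = 0.00548) without WT replicate 2. HOXB7, the gene with the highest level, stood at 96.0 and 102 CPM in ARID1A KO cells and 117 and 105 CPM in WT cells (log2 fold change −0.17, adjusted p = 0.0628). HOXD10 stood at 14.2 and 12.8 CPM in ARID1A KO cells and 11.7 and 10.5 CPM in WT cells (log2 fold change 0.29, adjusted p = 0.062). The Müllerian genes HOXA9, HOXA10 and HOXA11 had log2 fold changes of −0.28, 0.14 and 0.09, none past the threshold, with adjusted p from 0.371 to 0.861. HOXA10 stood at 9.54 and 9.69 CPM in ARID1A KO cells and 8.64 and 8.76 CPM in WT cells. HOXB13, the posterior end of HOXB, stood at 3.86 and 4.47 CPM in ARID1A KO cells and 2.65 and 3.33 CPM in WT cells (log2 fold change 0.47, adjusted p = 0.13). HOXA2 stood at 0.521 and 0.966 CPM in ARID1A KO cells and 1.12 and 1.45 CPM in WT cells (log2 fold change −0.78, adjusted p = 0.187).

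By place in the cluster, anterior genes (numbers 1 to 3, 7 of 8 tested) had 2 rises and 0 falls, and 3 rises and 0 falls at an unadjusted p under 0.05 in edgeR. Central genes (4 to 8, 11 of 15 tested) had 1 rise and 1 fall, and posterior genes (9 to 13, 10 of 16 tested) 1 rise. Over all genes 16.8% rose and 17.8% fell. The posterior genes also include HOXC9, whose fall is only a description because it entered the test through WT cells alone. At the same unadjusted threshold, central genes had 1 rise and 3 falls and posterior genes 2 rises and 1 fall, again that of HOXC9. The anterior genes summed to 79.1 ± 6.90 CPM in ARID1A KO cells and 62.8 ± 2.91 CPM in WT cells. The central genes summed to 176.1 ± 5.59 CPM in ARID1A KO and 188.7 ± 12.8 CPM in WT cells. The posterior genes summed to 87.0 ± 1.52 CPM in ARID1A KO and 84.3 ± 0.273 CPM in WT cells. In shControl cells, which have ARID1A too, the anterior, central and posterior sums were 80.6 ± 1.08, 241.5 ± 2.33 and 92.1 ± 0.593 CPM. The anterior sum of shControl cells thus also lay above that of WT cells.

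**Figure D3:**
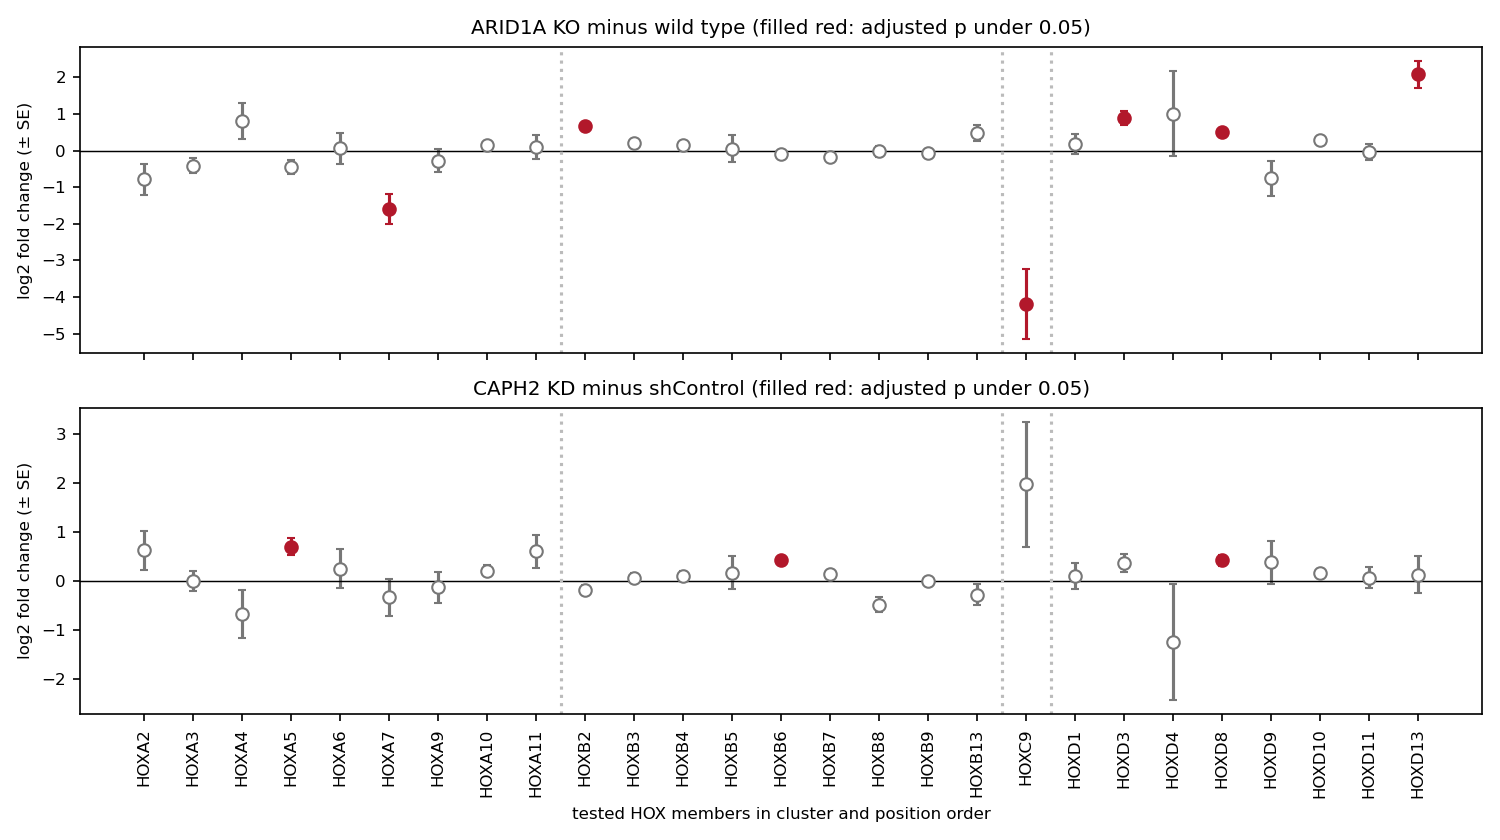
Log2 fold change with its standard error for 27 tested HOX genes, by cluster and place, for ARID1A KO against WT and for CAPH2 KD against shControl cells; filled points passed an adjusted p of 0.05. HOXD13 (2.08) and HOXC9 (−4.20) lie farthest from 0 among the genes called in ARID1A KO cells, and the 3 genes called in CAPH2 KD cells lie between 0.42 and 0.70.

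WT and shControl cells both have ARID1A and CAPH2, so the comparison of shControl with WT cells shows how far these cells differ without either perturbation. HOXB3, HOXB6, HOXB7 and HOXD10 rose, 4 of 27 genes or 14.8%, beside 19.2% of all genes, of which 9.13% rose and 10.1% fell. HOXD10, a posterior gene, stood at 16.7 and 18.9 CPM in shControl cells and 11.7 and 10.5 CPM in WT cells (log2 fold change 0.69, SE 0.11, adjusted p = 0.0012). HOXB3 stood at 48.2 and 49.0 CPM in shControl cells and 35.1 and 31.9 CPM in WT cells (0.54, SE 0.09, adjusted p = 0.00151). HOXB7 stood at 143 and 140 CPM in shControl cells and 117 and 105 CPM in WT cells (0.35, SE 0.06, adjusted p = 0.00308), and HOXB6 at 55.6 and 61.7 CPM in shControl cells and 47.0 and 42.6 CPM in WT cells (0.39, adjusted p = 0.00303). The median over the 28 genes was 0.30 and that over all genes 0.00153, with 23 of the 28 above 0. HOXD4, which entered through shControl cells alone, is among those 23, with a fitted log2 fold change of 0.91 that was not called. HOXC9, which entered through WT cells alone and is left out of the 27 genes, had a fitted log2 fold change of −4.98. Both are in the median of the 28 genes, which is thus given as a description.

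Since these 2 groups with intact genes differ, ARID1A KO cells were also set against shControl cells, a comparison added after the data had been seen. It called 11 of the 28 genes, 3 higher and 8 lower, beside 41.8% of all genes, with 20.9% higher and 20.9% lower. HOXB2 (log2 fold change 0.63), HOXD3 (0.95) and HOXD13 (1.81) were higher in ARID1A KO cells than in shControl cells, and HOXA7 was lower (−1.56, adjusted p = 0.00902). Those 4 genes kept both their direction and their call against either set of cells. HOXD8 was not called against shControl cells (0.22, adjusted p = 0.171), and HOXC9 had a fitted log2 fold change of 0.78. Called lower against shControl cells and not against WT cells were HOXA3 (−0.78), HOXA5 (−0.78), HOXB3 (−0.33), HOXB6 (−0.48), HOXB7 (−0.52), HOXB8 (−0.43) and HOXD10 (−0.40). For HOXB3 and HOXD10 the sign differed between the comparisons, at 0.21 and 0.29 against WT cells. The comparisons share the knockout libraries, and the knockout cells carry no shRNA, so the vector and the loss of ARID1A cannot be told apart in the one against shControl cells.

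**Figure D4:**
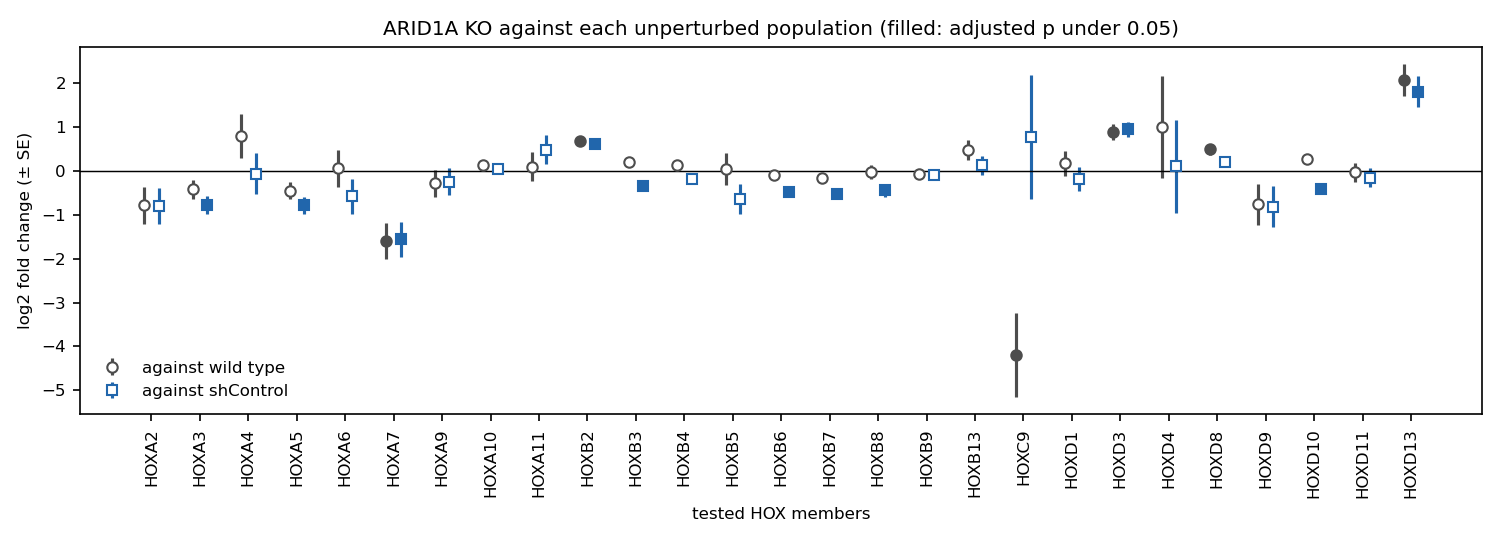
Log2 fold change (± SE) of 27 tested HOX genes in ARID1A KO cells against WT cells (circles) and against shControl cells (squares), genes in cluster order; filled symbols passed an adjusted p of 0.05, and both sets of values share the knockout libraries. HOXB2, HOXD3 and HOXD13 are filled above 0 and HOXA7 below 0 in both, while HOXC9 is at −4.20 against WT and 0.78 against shControl cells.

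The second comparison, CAPH2 KD against shControl cells, asks how loss of the condensin II subunit changed expression. HOXA5, HOXB6 and HOXD8, all central genes, rose, 3 of 28 genes or 10.7%, beside 15.8% of all genes; 7.62% of all genes rose and 8.22% fell. No gene fell in edgeR's test with all libraries, and 1 was lower at an unadjusted p under 0.05; DESeq2 also called 0 lower. The median log2 fold change was 0.13 over the 28 genes and 0 over all genes, with 19 of the 28 above 0. The 28 include HOXD4, which entered through shControl cells alone and was not called (fitted log2 fold change −1.25).

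HOXB6 stood at 78.5 and 78.2 CPM in CAPH2 KD cells and 55.6 and 61.7 CPM in shControl cells, and no other group reached the knockdown libraries. Its log2 fold change was 0.42 (SE 0.07, adjusted p = 0.00159), and the call held without each library in turn. Of its exon bases, 32.9% are shared with HOXB3 and with HOXB-AS3 on the opposite strand, which rose as well. HOXA5, which in mouse embryos is needed for the lung and airways, stood at 10.8 and 9.06 CPM in CAPH2 KD cells and 5.94 and 6.31 CPM in shControl cells. Its log2 fold change was 0.70 (SE 0.18, adjusted p = 0.0215), and the call was lost without shControl replicate 1 (0.65, adjusted p = 0.134), shControl replicate 2 (0.74, adjusted p = 0.0915) or CAPH2 KD replicate 1 (0.56, adjusted p = 0.16). HOXD8 stood at 13.3 and 12.2 CPM in CAPH2 KD cells and 9.13 and 9.97 CPM in shControl cells (log2 fold change 0.42, SE 0.12, adjusted p = 0.0346). That call was lost without any of the 4 libraries compared (adjusted p from 0.0763 to 0.21) and in DESeq2 (adjusted p = 0.0774).

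HOXB8, a central gene, was the one lower at an unadjusted p under 0.05 (log2 fold change −0.49, SE 0.15, adjusted p = 0.0505). It stood at 5.49 and 6.22 CPM in CAPH2 KD cells and 7.86 and 8.54 CPM in shControl cells. In WT cells, which have CAPH2 too, HOXB8 stood at 5.46 and 6.84 CPM. It passed under RLE scaling (adjusted p = 0.0497), in a fit of the compared groups alone (adjusted p = 0.0348) and without either WT library (adjusted p = 0.0283 and 0.0292). HOXB7 stood at 152 and 157 CPM in CAPH2 KD cells and 143 and 140 CPM in shControl cells (0.13, adjusted p = 0.201), and HOXB9 at 52.4 and 51.7 CPM in CAPH2 KD cells and 51.6 and 52.8 CPM in shControl cells. HOXB2 stood at 13.6 and 12.8 CPM in CAPH2 KD cells and 15.6 and 14.4 CPM in shControl cells (−0.18, adjusted p = 0.211). HOXD13 stood at 0.977 and 0.935 CPM in CAPH2 KD cells and 0.774 and 0.977 CPM in shControl cells (0.12, SE 0.38). HOXC9 had a ratio of CAPH2 KD to shControl cells of 4.34, with an exact 95% counting interval of 0.867 to 42.0. The central genes summed to 279.6 ± 1.12 CPM in CAPH2 KD cells and 241.5 ± 2.33 CPM in shControl cells, the anterior genes to 84.4 ± 2.58 CPM in CAPH2 KD and 80.6 ± 1.08 CPM in shControl cells, and the posterior genes to 95.9 ± 0.747 CPM in CAPH2 KD and 92.1 ± 0.593 CPM in shControl cells.

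Whether the effect of the knockout differed from that of the knockdown was tested as the difference of the log2 fold changes, knockout minus knockdown. It passed for 5 of 27 genes (18.5%), again without HOXC9, beside 26.3% of all genes, 12.3% positive and 14% negative. The difference was positive for HOXB2 (0.86, SE 0.13, adjusted p = 0.000391) and HOXD13 (1.96, SE 0.53, adjusted p = 0.0176). It was negative for HOXA5 (−1.14, SE 0.27, adjusted p = 0.00794), HOXB6 (−0.51, SE 0.10, adjusted p = 0.00285) and HOXB7 (−0.30, SE 0.09, adjusted p = 0.0292). The HOXD13 difference was lost without ARID1A KO replicate 2, shControl replicate 2 or CAPH2 KD replicate 2 (1.78 to 1.93) and that of HOXB7 without any 1 of 5 libraries (−0.32 to −0.26), which were ARID1A KO replicate 1 and all CAPH2 KD and shControl libraries. HOXD8, the one HOX gene called in both comparisons, rose by 0.50 in ARID1A KO cells and 0.42 in CAPH2 KD cells, and the difference was 0.08 (adjusted p = 0.769). HOXA5, which rose in CAPH2 KD cells, stood at 3.18 and 3.94 CPM in ARID1A KO cells and 5.66 and 4.09 CPM in WT cells (log2 fold change −0.45, adjusted p = 0.105).

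The genes around the clusters were set beside them, taking the 10 tested protein-coding genes on each side. In ARID1A KO against WT cells the median log2 fold change of the 20 flanking genes was −0.08 for HOXA (4 rose, 5 fell), −0.06 for HOXB (3 and 3), −0.03 for HOXC (2 and 3) and 0.19 for HOXD (5 and 3), where 34.5% of all genes were called. The flanks of HOXD, from LNPK on one side and MTX2 on the other, thus had a median above 0, as the HOXD genes themselves did at 0.39. In shControl against WT cells, both with ARID1A, the HOXD genes also had a median above 0 (0.28), and their flanks one of −0.13. Against shControl cells, HOXD3 (0.95) and HOXD13 (1.81) were called higher in ARID1A KO cells and HOXD10 (−0.40) lower. In CAPH2 KD against shControl cells the medians were 0.01 (3 rose, 6 fell), 0.10 (3 and 2), 0.03 (2 and 1) and 0.06 (3 and 3) for HOXA, HOXB, HOXC and HOXD, where 15.8% of all genes were called.

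**Figure D5:**
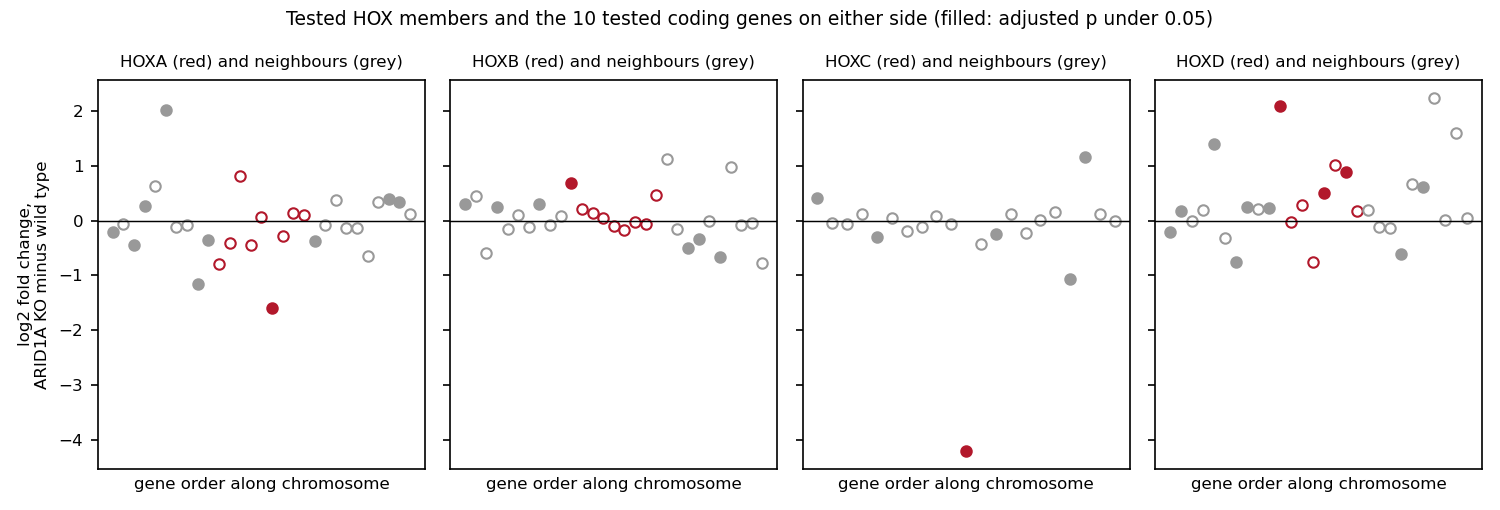
Log2 fold change in ARID1A KO against WT cells of 27 tested HOX genes by cluster (red) and of the 20 protein-coding genes flanking each cluster (grey), in gene order along the chromosome; filled points passed an adjusted p of 0.05. Flanking genes scatter on both sides of 0, with a median of 0.19 around HOXD.

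Of 18 noncoding genes of the clusters, 10 were tested and 5 had no count in any library, HOTAIR of the HOXC cluster among them. HOXB-AS3, which lies antisense to HOXB5 and HOXB6, rose in both comparisons. It stood at 68.0 and 69.3 CPM in ARID1A KO cells and 48.6 and 48.2 CPM in WT cells (log2 fold change 0.51, SE 0.06, adjusted p = 5.89e-05). It stood at 68.4 and 65.4 CPM in CAPH2 KD cells and 48.6 and 45.4 CPM in shControl cells (0.51, SE 0.06, adjusted p = 0.000144). In ARID1A KO cells it rose while HOXB6 stood at 42.2 and 41.9 CPM, against 47.0 and 42.6 CPM in WT cells (−0.09, adjusted p = 0.377). HOXD-AS2, antisense to HOXD3, rose in ARID1A KO cells to 1.78 and 2.25 CPM, against 0.909 and 1.09 CPM in WT cells (1.01, SE 0.31, adjusted p = 0.0258). The call was lost in DESeq2 (adjusted p = 0.0594) and without any of the 4 libraries compared but ARID1A KO replicate 1. No other noncoding gene passed in either comparison. The 4 miRNA genes of the clusters that had an ID were at 0 in all libraries.

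HOX factors bind DNA with partners of the TALE class, the PBX, MEIS and PKNOX proteins. Of 9 such genes 7 were tested: 1 rose and 2 fell in ARID1A KO cells, and in CAPH2 KD cells edgeR and DESeq2 both called 0, with 1 at an unadjusted p under 0.05, beside 34.5% and 15.8% of all genes called. PBX3 stood at 59.6 and 64.4 CPM in ARID1A KO cells and 16.7 and 12.8 CPM in WT cells, with 11.8 and 9.06 CPM in CAPH2 KD cells and 12.7 and 12.3 CPM in shControl cells. Its log2 fold change in the knockout was 2.08 (SE 0.13, adjusted p = 2.99e-07), and the knockout libraries stood far above the other 6. MEIS3 fell to 7.81 and 8.46 CPM in ARID1A KO cells, against 12.8 and 14.7 CPM in WT cells (−0.76, SE 0.11, adjusted p = 0.000211). PBX4, below 1 CPM in each group, was the other that fell (−1.96, adjusted p = 0.0237), a call lost in DESeq2 (adjusted p = 0.0556) and without WT replicate 1 or either ARID1A KO library.

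Of 10 trithorax-side genes, 1 rose and 3 fell in ARID1A KO cells, and 0 rose and 2 fell in CAPH2 KD cells, where 2 were higher at an unadjusted p under 0.05 in edgeR and DESeq2 called 0 higher. Over all genes 34.5% were called in ARID1A KO cells and 15.8% in CAPH2 KD cells, and counts of this size in a list of 10 lie near those shares. KMT2A, a histone methyltransferase that maintains HOX expression in embryos and leukaemia, fell in both. It stood at 45.3 and 39.4 CPM in ARID1A KO cells and 65.3 and 74.3 CPM in WT cells (log2 fold change −0.72, SE 0.08, adjusted p = 3.81e-05). It stood at 51.5 and 52.4 CPM in CAPH2 KD cells and 72.0 and 76.5 CPM in shControl cells (−0.51, SE 0.08, adjusted p = 0.0011). In ARID1A KO cells the related methyltransferase KMT2B fell as well (−0.74, adjusted p = 0.00715), and PSIP1, which tethers the KMT2A complex to chromatin, rose (0.50, adjusted p = 2.62e-05). The acetyltransferase gene KAT6A fell in CAPH2 KD cells (−0.37, adjusted p = 0.000726) and, by less, in ARID1A KO cells (−0.17, adjusted p = 0.0341), where the call was lost without WT replicate 2, ARID1A KO replicate 2 or any of the 4 shRNA libraries.

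Of 15 tested Polycomb genes, 2 rose and 2 fell in ARID1A KO cells, and 2 rose and 1 fell in CAPH2 KD cells, beside the same shares of all genes (34.5% and 15.8%). PHC2, of the PRC1 complex, fell to 21.8 and 18.8 CPM in ARID1A KO cells, against 34.1 and 34.5 CPM in WT cells (log2 fold change −0.76, SE 0.09, adjusted p = 3.44e-05). PHC1, its relative, rose (0.45, adjusted p = 0.0156), and RING1, which encodes a ubiquitin ligase of PRC1, fell (−0.38, adjusted p = 0.0256). In CAPH2 KD cells RING1 (0.43, adjusted p = 0.0218) and SUZ12 of PRC2 (0.28, adjusted p = 0.0128) rose and PHC3 fell (−0.26, adjusted p = 0.0104). EZH2, the methyltransferase of PRC2, was the other gene that rose in ARID1A KO cells (0.18, adjusted p = 0.037), lost in DESeq2 (adjusted p = 0.0938) and without any of the 4 libraries compared. The RING1 and PHC1 calls in ARID1A KO cells, and each of these 3 calls in CAPH2 KD cells, were lost without 1 or more of the libraries compared, and DESeq2 did not call RING1 in either comparison (adjusted p = 0.0892 and 0.0565).

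Of 15 genes of retinoid signalling, 12 were tested: 2 rose and 3 fell in ARID1A KO cells, and 2 rose and 2 fell in CAPH2 KD cells, again beside 34.5% and 15.8% of all genes. ALDH1A1, a retinaldehyde dehydrogenase that makes retinoic acid, stood at 59.0 and 65.5 CPM in ARID1A KO cells and 1.32 and 1.27 CPM in WT cells (log2 fold change 5.59, SE 0.16, adjusted p = 5.84e-10). It was also called in CAPH2 KD cells, at 1.26 and 1.61 CPM, against 0.557 and 0.921 CPM in shControl cells (0.94, SE 0.25, adjusted p = 0.0265). That call was lost in edgeR's fit of the compared groups alone (0.94, adjusted p = 0.123) and without shControl replicate 1 (0.64) or CAPH2 KD replicate 2 (0.75). CRABP2, which carries retinoic acid to its receptors, rose to 14.2 and 13.1 CPM in ARID1A KO cells, against 6.24 and 6.74 CPM in WT cells (1.07, SE 0.12, adjusted p = 3.78e-05), and the receptor gene RXRA fell (−0.62, SE 0.13, adjusted p = 0.00243). ALDH1A3, the most abundant of these dehydrogenases by CPM, fell to 535 and 576 CPM in ARID1A KO cells, against 681 and 737 CPM in WT cells (−0.35, adjusted p = 0.000467). It fell in CAPH2 KD cells as well (−0.26, adjusted p = 0.00706; lost without either shControl library or CAPH2 KD replicate 1). ALDH1A2 fell in ARID1A KO cells (−0.22, adjusted p = 0.0325), a call lost in DESeq2 (adjusted p = 0.0768) and without any of the 4 libraries compared. In CAPH2 KD cells DHRS3, a retinaldehyde reductase, fell to 25.9 and 28.4 CPM, against 39.5 and 40.0 CPM in shControl cells (−0.55, SE 0.07, adjusted p = 0.000242), and ALDH1A2 rose (0.34, adjusted p = 0.00594), a call lost without shControl replicate 2 or CAPH2 KD replicate 2. The 8 CDX, EVX and ParaHox genes, relatives of the HOX genes, were too low to test, with 5 at 0 in all libraries.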

How the data were processed

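Total RNA of RMG1 cells was made into TruSeq Total RNA libraries, per the labels' protocols. Expected counts of each Ensembl ID in the 8 libraries were deposited by the authors as 1 table, made with Bowtie2 and RSEM 1.2.12 on hg19, per the submitters' processing notes. The annotation release and strand option were not given in the sources used here. All expected counts were whole numbers already. RSEM divides reads that fit several genes, so overlapping HOX genes and antisense partners are uncertain singly.

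In R 4.3.3, edgeR 4.0.16 removed low genes (filterByExpr by group, minimum count 10), scaled by TMM and fitted group means to all 8 libraries, with 4 residual degrees of freedom. Quasi-likelihood F-tests were adjusted by Benjamini-Hochberg over 16657 genes and called under 0.05. The test was also run on counts simulated with the same spread for all genes, from which nothing is concluded here. Libraries of a group differed by more than sampling noise. Same-numbered libraries did not deviate together (correlations from −0.00945 to 0.0277), so replicate numbers were not used as pairs. Lengths, overlaps and gene order came from GENCODE on GRCh38, a build other than that of the counts.

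Named were all HOX genes but the 1 not reported here, with values by library for those called or highest per kb in a cluster. Up to 3 called genes of at least 1 CPM per list and comparison were named too. PBX4, EZH2, ALDH1A3, KAT6A and ALDH1A2 in the knockout, and ALDH1A3 in the knockdown, were named in addition after their values were seen. Members and lists were chosen with earlier results of these data known. Values of 1 HOX gene that was not called and of 1 marker are not reported here, though counts and sums include them. Alternatives were DESeq2 1.42.0, RLE scaling, no low-count filter, the compared groups alone, a replicate block and leaving out each library.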

Additional observations from a re-analysis of the deposited data

How the results depend on the processing

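With 2 libraries a group, the depth and the spread between libraries limit what can be said of genes under about 1 CPM. HOXB2, HOXD3, HOXD8, HOXD13 and HOXA7 kept their knockout calls under RLE scaling, DESeq2, no low-count filter, the compared groups alone and the replicate block. HOXC9 was called there too, but it entered the test through WT cells alone, so its calls are a description. The HOX counts below include HOXC9 where it was called. RLE scaling and DESeq2 moved the median of all genes by less than 0.01 on the log2 scale. With the replicate block, 5500 genes were called in ARID1A KO against WT cells and 2483 in CAPH2 KD against shControl cells, 6 and 3 of them HOX genes, and no HOX call of these comparisons changed, while the difference of effects had 7 HOX calls in place of 6; the replicate numbers pair no samples. In CAPH2 KD cells, the compared groups alone called 5 HOX genes, with HOXB7 and HOXB8 added, RLE scaling 4 and DESeq2 2.

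With shControl in place of WT cells as the control of the knockout, which was chosen after seeing the data, 11 HOX genes were called and 8 changed sign: HOXA4 (−0.0574), HOXA6 (−0.57), HOXB3 (−0.33), HOXB4 (−0.17), HOXB5 (−0.63), HOXC9 (0.78), HOXD1 (−0.18) and HOXD10 (−0.40). The cause was not tested.

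Leaving out each library in turn, the count of genes called was 3977 to 5731 in ARID1A KO cells (4 to 8 HOX genes), 1388 to 3528 in CAPH2 KD cells (1 to 4 HOX genes), 1592 to 3469 for shControl against WT cells (4 to 6 HOX genes) and 3304 to 4849 for the difference of effects (4 to 8 HOX genes). A lone library was then assumed to vary like the other groups, and fewer samples were fitted. The counts in CAPH2 KD cells were lowest without shControl replicate 1 (1388), shControl replicate 2 (1499), CAPH2 KD replicate 2 (1533) and CAPH2 KD replicate 1 (1548). Among the HOX genes and the TALE, trithorax-side, Polycomb, retinoid and noncoding genes named above, none that was called changed sign. Log2 fold changes of uncalled genes that did, among those reported here, ranged, in ARID1A KO cells, from −0.36 to 0.39 for HOXA6, −0.67 to 0.0172 for HOXA9, −0.22 to 0.53 for HOXA11, −0.31 to 0.33 for HOXB5, −0.17 to 0.15 for HOXB8, −0.31 to 0.54 for HOXD1, −1.32 to 0.25 for HOXD9 and −0.24 to 0.15 for HOXD11. In CAPH2 KD cells they ranged from −0.21 to 0.15 for HOXA3, −0.79 to 0.0101 for HOXA7, −0.31 to 0.0689 for HOXA9, −0.0217 to 0.0130 for HOXB9, −0.0596 to 0.26 for HOXD1, −0.0906 to 0.23 for HOXD11 and −0.0313 to 0.30 for HOXD13.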
